A study of Sus scrofa with 6 samples.

Results

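The membrane receptors for prostaglandins and thromboxane were followed in the endometrium, the inner lining of the uterus, of Erhualian pigs. The 6 genes were taken by name, PTGFR, PTGER2, PTGER3, PTGER4, PTGIR and TBXA2R, and all 6 were among the 14262 genes of the deposited expression table. Every gene of that table had a value of at least 10 in 3 or more libraries. How low values had been treated before deposit is not given in the sources used here. Tissue came from 3 sows labelled high prolific and 3 labelled low prolific, each sow giving 1 library. All 6 were Erhualian, a Chinese breed, and all were at day 12 of gestation. The high prolific sows 1, 2 and 3 (called high 1 to high 3 here) had parities of 5, 8 and 8, and low 1 to low 3 had parities of 7, 7 and 5. Ages, litter records and the state of the conceptuses are not given in the sources used here.

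Prostanoids are short-lived lipids made from arachidonic acid that act close to where they are released, through receptors that span the membrane and signal through G proteins. PTGFR, the FP receptor, binds prostaglandin F2alpha and works mainly through Gq, phospholipase C and intracellular calcium. PTGER2 and PTGER4, the EP2 and EP4 receptors, bind prostaglandin E2 and raise cAMP, while PTGER3, the EP3 receptor, binds the same ligand and mostly lowers it. PTGIR is the prostacyclin receptor, also coupled to cAMP, and TBXA2R the thromboxane receptor, which contracts vessels and activates platelets. In the pig, the days around maternal recognition of pregnancy are marked by conceptus estrogen and by a shift in the balance of prostaglandin E2 and prostaglandin F2alpha in the uterus, which is part of how the corpus luteum is kept.

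Values are normalized read counts as deposited, with no division by gene length. Levels are therefore compared between sows for 1 gene at a time and not between genes. Group values are means ± SD over 3 sows. A log2 fold change is the high prolific mean minus the low prolific mean of log2(value + 1), a scale that compresses differences at low values, and comes with the standard error (SE) of limma's moderated fit over all genes. P-values were adjusted over all 14262 genes by the Benjamini-Hochberg method, with a threshold of 0.05. The table was made from bulk tissue, so fewer cells of a type and less RNA per cell cannot be told apart. The column sums lay between 22663087 and 24270245 and are set by the normalization, so the depth behind a value is unknown.

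General epithelial and fibroblast marker genes were looked up, which cannot tell endometrium from other tissues. The epithelial markers (7 of 8 measured) summed to between 68711 and 72621 in high and between 56350 and 81343 in low prolific sows. The fibroblast markers (7 of 7) summed to between 305060 and 413569 and between 368880 and 508554. By log2 fold change, 4 epithelial markers lay higher in high prolific sows and 3 lower (median 0.04). For fibroblast markers it was 1 higher and 6 lower (median -0.28). CDH1 and CLDN4 of the epithelial list and LUM and PDGFRB of the fibroblast list lay lower without overlap, beside 6.32% of all genes. No measured marker in these lists was at 0, but every gene of the table had at least 10 in 3 or more libraries. On the first principal component of all genes, which held 43.6% of the variance, low 2 and low 3 stood apart from the other 4 sows. The group difference of each receptor is therefore given with and without both.

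Of the 6 receptors, PTGFR lay higher in every high prolific sow than in any low prolific sow, TBXA2R lay lower in every high prolific sow, and the other 4 overlapped between the groups. None of the 6 passed at an adjusted p under 0.05, where limma called 0 of all genes (0%) and 1129 genes had an unadjusted p under 0.05 (7.92%). The latter were 3.83% of genes with the high prolific sows above and 4.09% with them below, and PTGFR, above, was the 1 receptor among them. No other tool was run. Groups without overlap were found in 13.5% of all genes, 7.18% with the high prolific sows above and 6.32% with them below, so 1 receptor in each direction is to be read against those shares. The median log2 fold change of the 6 was 0.09, beside -0.0024 over all genes, with 4 members above 0 and 2 below.

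**Figure D1:**
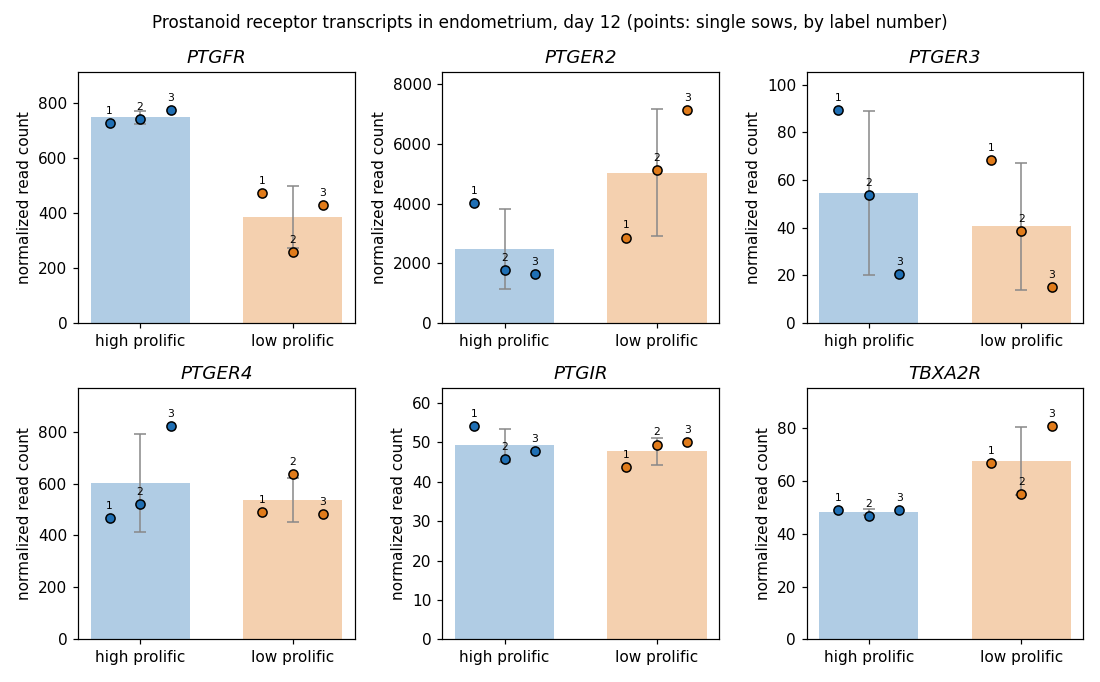
Normalized read counts (linear axes from 0) of the 6 receptor genes for high prolific (blue) and low prolific (orange) sows. Each bar is the mean of a group of 3, the error bar its SD and each point a sow with its label number. PTGFR separates the groups with the high sows above (lowest 727, against at most 473) and TBXA2R with the low sows above (lowest 55.1 against a highest of 48.9), while the other 4 genes overlap.

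PTGFR was at 727, 743 and 775 in high 1, high 2 and high 3, and at 473, 259 and 429 in low 1, low 2 and low 3. The high prolific sows were close together and all above the low prolific sows, among which low 2 was the lowest. The means were 748 ± 24.3 and 387 ± 113 (SD, n = 3), and the highest high prolific sow was 1.07 times the lowest, against 1.83 times in the low prolific group. The fitted difference was 1.00 ± 0.23 in log2 units (SE), a 2.00-fold higher level in high prolific sows with a 95% interval from 1.35-fold to 2.95-fold before any correction for the number of genes. By unadjusted p, PTGFR ranked 97 of the 14262 genes, and the adjusted p was 0.619 with limma. An exact two-sided permutation test over sows gave p = 0.1, the smallest that 3 against 3 allow. With low 2 and low 3 both left out the log2 fold change was 0.66 ± 0.14 (SE), resting on low 1 alone for its group, which is then assumed to vary as the other sows do. With parity as a covariate it was 1.02.

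PTGER2 had its lowest values in high 3 (1641) and high 2 (1786) and its highest in low 3 (7120) and low 2 (5125). High 1, at 4002, and low 1, at 2861, crossed over, so the groups overlapped. The group means were 2477 ± 1323 (high) and 5035 ± 2131 (low; SD, n = 3). The log2 fold change of -1.05 ± 0.45 (SE) corresponds to a 2.07-fold lower level in high prolific sows, with a 95% interval from -2.14 to 0.04 in log2 units and an adjusted p of 0.633 with limma. Its size depended on single sows: it was -1.46 without high 1, -1.41 without low 1 and -0.75 without low 3. Without both low 2 and low 3 it was -0.33 ± 0.56 (SE), and with parity as a covariate -0.77 ± 0.23. In RefSeq's Sscrofa11.1 annotation PTGER2 overlaps PTGDR, the gene of a prostaglandin D2 receptor. PTGDR had no row in the table under its identifier and is not analysed here, and reads shared by these overlapping genes may have been assigned to either one or to none.

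PTGER3 varied more within the groups than between them. It was at 89.3, 53.8 and 20.4 in high 1 to high 3 and at 68.2, 38.5 and 15.2 in low 1 to low 3. Both groups thus covered almost the same range, a span of 4.37 times in high and 4.49 times in low prolific sows, and the means were 54.5 ± 34.4 and 40.6 ± 26.6 (SD, n = 3). Its spread within groups, an SD of 1.06 in log2 units, exceeded that of 97.0% of all genes. The log2 fold change of 0.42 ± 0.71 (SE) had a 95% interval from -1.30 to 2.14 and an adjusted p of 0.887 with limma. Its sign turned to -0.05 without high 1, to -0.14 without low 3 and to -0.55 without both low 2 and low 3. In RefSeq's annotation 2 uncharacterized long noncoding RNA genes overlap PTGER3, and the strand setting of the counting is not given in the sources used here.

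PTGER4 was at 466, 520 and 820 in high 1 to high 3 and at 491, 635 and 484 in low 1 to low 3. Apart from high 3, the sows of both groups lay between 466 and 635. The means were 602 ± 190 and 537 ± 85.4 (SD, n = 3), and the log2 fold change of 0.13 ± 0.24 (SE) had a 95% interval from -0.45 to 0.71 and an adjusted p of 0.898 with limma. Without high 3 it turned to -0.11, and without both low 2 and low 3 it was 0.25. The data thus leave room for a difference of up to 1.64-fold in one direction and, in the other, down to 0.733 of the low prolific level.

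PTGIR, the prostacyclin receptor, was the steadiest of the 6. It was at 54.1, 45.8 and 47.9 in high 1 to high 3 and at 43.7, 49.5 and 50.03 in low 1 to low 3, so the highest of the 6 sows was 1.24 times the lowest. Its spread within groups was larger than that of only 16.9% of all genes. The log2 fold change was 0.04 ± 0.21 (SE), with a 95% interval from -0.47 to 0.56 and an adjusted p of 0.963 with limma, and it turned to -0.02 without high 1 and without low 1. Without both low 2 and low 3 it was 0.17.

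TBXA2R was at 48.9, 46.7 and 48.8 in high 1 to high 3 and at 66.9, 55.1 and 80.6 in low 1 to low 3. As with PTGFR, the high prolific sows were nearly equal and the low prolific sows spread out, here above them. The means were 48.1 ± 1.23 and 67.5 ± 12.8 (SD, n = 3), with a coefficient of variation of 2.55% among the high and 18.9% among the low prolific sows. The log2 fold change of -0.46 ± 0.23 (SE) is a 1.38-fold lower level in high prolific sows, with a 95% interval from -1.01 to 0.09 and an adjusted p of 0.654 with limma. The exact two-sided permutation p was 0.1, again the smallest possible. With low 2 and low 3 both left out the log2 fold change was -0.47, and over all 17 alternatives that gave a value it stayed between -0.60 and -0.33.

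**Figure D2:**
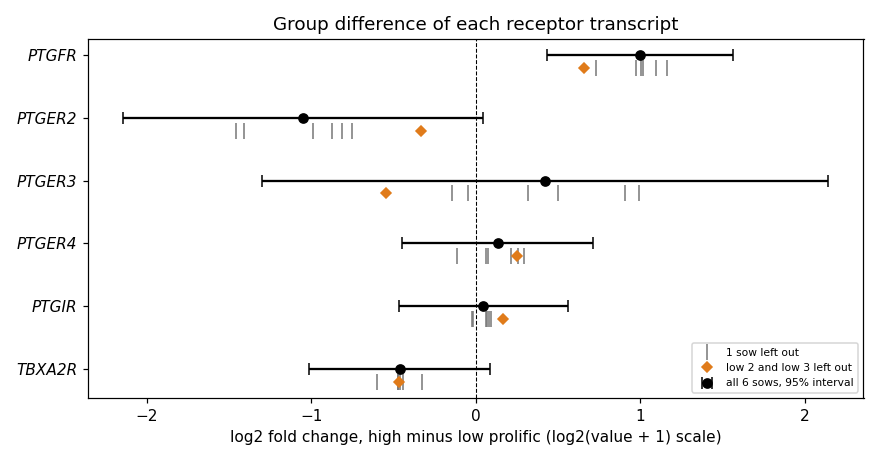
Log2 fold change of each receptor gene, high minus low prolific, with the unadjusted 95% interval of the limma fit (black), the values with 1 sow left out (grey ticks) and the value with low 2 and low 3 left out (orange diamonds). PTGFR stays between 0.66 and 1.16 in all of these, PTGER2 moves from -1.05 to -0.33 without low 2 and low 3, and PTGER3, PTGER4 and PTGIR have values on both sides of 0.

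The 6 genes did not share a pattern over the sows. Measured as the deviation from each gene's mean over the 6 sows, low 2 was lowest in PTGFR (-1.03) and low 3 highest in PTGER2 (1.12) and TBXA2R (0.50). High 3 was highest in PTGER4 (0.56) and lowest in PTGER2 (-0.99). The EP receptors therefore differed among themselves, with low 3 at -1.34 in PTGER3 and at 1.12 in PTGER2. PTGER4, which like PTGER2 is coupled to cAMP, had high 3 and low 2 as its highest sows, of which high 3 was the lowest sow in PTGER2.

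**Figure D3:**
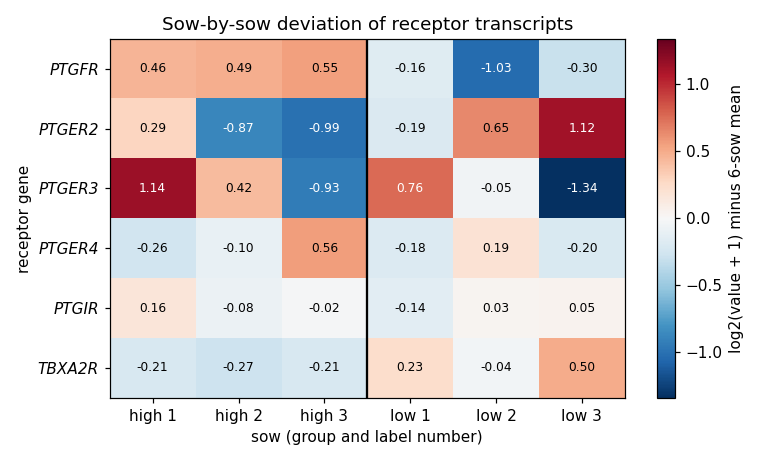
Deviation of each receptor gene (rows) in each sow (columns) from its mean over the 6 sows, on the log2(value + 1) scale, with red above and blue below the mean and a line between the groups. PTGFR is above its mean in all 3 high prolific sows (0.46 to 0.55) and below it in all 3 low prolific sows, and PTGER3 runs from 1.14 in high 1 to -1.34 in low 3.

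Ratios between receptors were taken in each sow for 4 pairs, chosen after the values of the genes had been seen. The ratio of PTGER2 to PTGFR values was 5.51, 2.40 and 2.12 in high 1 to high 3 and 6.05, 19.8 and 16.6 in low 1 to low 3. This is not a ratio of transcript numbers, because the genes differ in length, but the length is the same in every sow. The groups did not overlap, by a margin between high 1 and low 1 that was small beside the spread within each group. The means were 3.34 ± 1.88 and 14.2 ± 7.2 (SD, n = 3). An exact two-sided permutation test over sows, on log2(ratio + 1), gave p = 0.1, the smallest possible, and 0.3 when adjusted over the 4 ratios. PTGER2 and PTGFR had the lowest and the highest log2 fold change of the 6 receptors, and the adjustment does not cover that choice. The other ratios overlapped between the groups. PTGER2 to PTGER4, both receptors for prostaglandin E2, was at 8.59, 3.43 and 2.00 in high 1 to high 3 against 5.82, 8.07 and 14.7 in low 1 to low 3. PTGER2 to PTGER3 was at 44.8, 33.2 and 80.3 against 41.9, 133 and 469, the last of these in low 3. PTGFR to PTGER4 was at 1.56, 1.43 and 0.945 against 0.962, 0.407 and 0.887. Their exact permutation p-values were 0.3, 0.3 and 0.2, and all were 0.3 after adjustment.

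**Figure D4:**
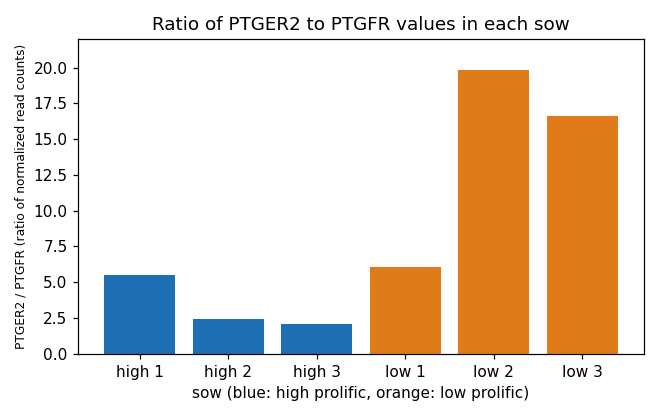
Ratio of PTGER2 to PTGFR normalized read counts in each sow (bars, linear axis from 0; blue high, orange low prolific). The ratio is 5.51 in high 1 and 6.05 in low 1, next to each other, and highest in low 2 (19.8) and low 3 (16.6).

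Genes whose deviations over the 6 sows came closest to each receptor were listed by the root mean square difference in log2 units, as a description over 6 libraries. They were picked from 11336 genes, so a near match carries little weight. For PTGFR they were GEM (0.16), a small GTPase, DIRAS3 (0.16), another small GTPase, and MAOB (0.16), monoamine oxidase B. GEM was at 356, 480 and 420 in high 1 to high 3 and at 278, 166 and 287 in low 1 to low 3, with its lowest value in low 2 as in PTGFR. For PTGER2 they were GTSE1 (0.12), SLC46A3 (0.19) and GPRC5B (0.20), an orphan G protein-coupled receptor. GPRC5B was at 5480, 1727 and 2173 in high and 3299, 7547 and 8199 in low prolific sows. For PTGER3 they were PPP1R1B (0.39), KCNQ5 (0.42) and LRAT (0.43). The difference is not scaled to a gene's spread over the sows, so it cannot rank the receptors by closeness of match. PTGER4 was matched by NUP98 (0.07), COG2 (0.08) and C11orf52 (0.09), PTGIR by HIBCH (0.03), PPM1B (0.03) and CERS2 (0.04), and TBXA2R by STAR (0.08), DHRS7 (0.08) and CTSL (0.09).

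Other receptors of the family were looked up too. PTGDR2, a prostaglandin D2 receptor of leukocytes, was at 23.9, 26.5 and 19.5 in high 1 to high 3 and at 27.4, 72.3 and 44.4 in low 1 to low 3, with a log2 fold change of -0.92 ± 0.40 (SE) and an adjusted p of 0.633 with limma. The groups did not overlap, but high 2 and low 1 were nearly equal. With low 2 and low 3 both left out the log2 fold change of PTGDR2 was -0.23. PTGFRN, a membrane protein that binds the FP receptor and limits its ligand binding, was at 8638 in low 2, while the remaining 5 sows lay between 2795 and 4484. Low 2 was thus the sow with the lowest PTGFR and the highest PTGFRN. The log2 fold change of PTGFRN was -0.37 ± 0.41 (SE, adjusted p = 0.812 with limma), and it turned to 0.10 without low 2. PTGER1, the remaining EP receptor, had no matching row and is not analysed here.

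Enzymes that make and remove the ligands were measured for 13 of 17 listed genes, of which 5 were above and 8 below 0 and none passed the test. Of the 13 genes, 3 lay higher without overlap and 2 lower, beside 7.18% and 6.32% of all genes. PTGS2, the inducible cyclooxygenase, had its lowest values in low 2 (1557) and low 3 (3274), and AKR1B1, which can make prostaglandin F2alpha, its highest there (154398 and 48021). The groups did not overlap in PTGS2, but high 3 (5741) and low 1 (5729) were nearly equal. The log2 fold change of PTGS2 was 1.14 ± 0.46 (SE, adjusted p = 0.629 with limma), and 0.24 without both low 2 and low 3. PTGES, a prostaglandin E synthase, overlapped between the groups (354 to 816 against 286 to 572). The 3 genes of this list with the smallest p were HPGD, which inactivates prostaglandins, and PLA2G4A, which frees arachidonic acid, with log2 fold changes of 1.57 and 0.91, and PTGR1, a prostaglandin reductase, at -0.98. Their adjusted p was 0.619 with limma. With low 2 and low 3 both left out, the log2 fold changes were 0.37 for HPGD, 0.21 for PLA2G4A and -0.90 for PTGR1, resting on low 1 alone for its group.

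Genes downstream of the receptors were described in further lists. Over all 10 lists, those of ligands and family members included, 104 of 127 genes were measured, and limma called 0 of them (smallest adjusted p = 0.619), beside 0% of all genes. Median log2 fold changes lay close to 0 in the lists of signalling genes. Most genes named below were those with the smallest p of their list. That choice favours groups without overlap, which were found in 13.5% of all genes. Of the heterotrimeric G protein subunits, 5 lay higher and 5 lower (median 0.02). GNAQ, the alpha subunit that couples FP and thromboxane receptors to phospholipase C, was at 3131, 3227 and 3987 in high 1 to high 3 and at 2816, 2453 and 3008 in low 1 to low 3, which did not overlap. Its log2 fold change was 0.32 ± 0.14 (SE, adjusted p = 0.633 with limma). GNB4, a beta subunit, had 0.43 ± 0.17 and GNA13, an alpha subunit, 0.19 ± 0.11.

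In the Gq branch of phospholipase C, IP3 receptors and protein kinase C, 6 of 14 genes lay higher and 8 lower (median -0.05). The smallest p was that of PRKCE, protein kinase C epsilon. It was at 345, 376 and 475 in high 1 to high 3 and at 648, 1057 and 679 in low 1 to low 3, so every high prolific sow was below every low prolific sow. Its log2 fold change was -0.97 ± 0.23 (SE, adjusted p = 0.619 with limma). PRKCA, protein kinase C alpha, had -0.42 ± 0.17 and PLCB3, a phospholipase C beta, -0.23 ± 0.13. Both also lay lower without overlap. In all, 4 of the 14 genes did so, beside 6.32% of all genes. The remaining phospholipase C beta genes, PLCB1, PLCB2 and PLCB4, lay between 0.09 and 0.12 with overlapping groups.

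In the cAMP branch of adenylyl cyclases, protein kinase A and CREB, 7 of 15 genes lay higher and 8 lower (median -0.05). RAPGEF3, the cAMP sensor EPAC1, was at 1166, 1165 and 1444 in high 1 to high 3 and at 1529, 1797 and 1738 in low 1 to low 3. ADCY4, an adenylyl cyclase, was at 317, 331 and 429 against 542, 456 and 489. Neither overlapped between the groups, and their log2 fold changes were -0.43 ± 0.13 and -0.47 ± 0.16 (SE, both adjusted p = 0.619 with limma). PRKAR2A, a regulatory subunit of protein kinase A, had -0.27 ± 0.13 with overlap. GNAS, the Gs alpha subunit through which EP2, EP4 and prostacyclin receptors act, had no matching row and is not analysed here.

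Among cAMP phosphodiesterases 5 of 10 genes lay higher (median 0.03). PDE3A was at 1431, 1392 and 1720 in high 1 to high 3 and at 1289, 849 and 1128 in low 1 to low 3, with a log2 fold change of 0.49 ± 0.18 (SE, adjusted p = 0.619 with limma) and no overlap. PDE4C had 0.82 ± 0.41 and PDE4B -0.43 ± 0.36, both with overlap. Genes of receptor desensitization were 6 higher and 5 lower (median 0.05), with RGS16 at 0.60 ± 0.33, RGS4 at 0.61 ± 0.42 and the receptor kinase GRK2 at -0.15 ± 0.10.

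Transcripts known to respond to cAMP were 5 higher and 5 lower (median -0.05), and all 10 overlapped between the groups. PER1, a clock gene, had 0.27 ± 0.13. The nuclear receptors NR4A3 (-1.37 ± 0.72) and NR4A1 (-0.66 ± 0.37) had their highest values in low 2, at 429 and 5017. Of the nuclear receptors linked to prostacyclin, 4 of 5 lay higher (median 0.05), and RXRB, PPARG and RXRA had log2 fold changes of 0.10, -0.41 and 0.10 with SE of 0.12, 0.52 and 0.16.

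Other receptors for contractile and vasoactive ligands lay lower in 10 of 14 genes (median -0.22). Of the 14, 3 lay lower without overlap, beside 6.32% of all genes. EDNRA, an endothelin receptor, S1PR1, a sphingosine-1-phosphate receptor, and CHRM2, a muscarinic receptor, had log2 fold changes of -0.64, -0.55 and -0.60, with no overlap between the groups and adjusted p between 0.619 and 0.629 with limma. OXTR, the oxytocin receptor, which like PTGFR acts through Gq, was at 693, 484 and 108 in high 1 to high 3 and at 196, 272 and 171 in low 1 to low 3, with overlap.

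**Figure D5:**
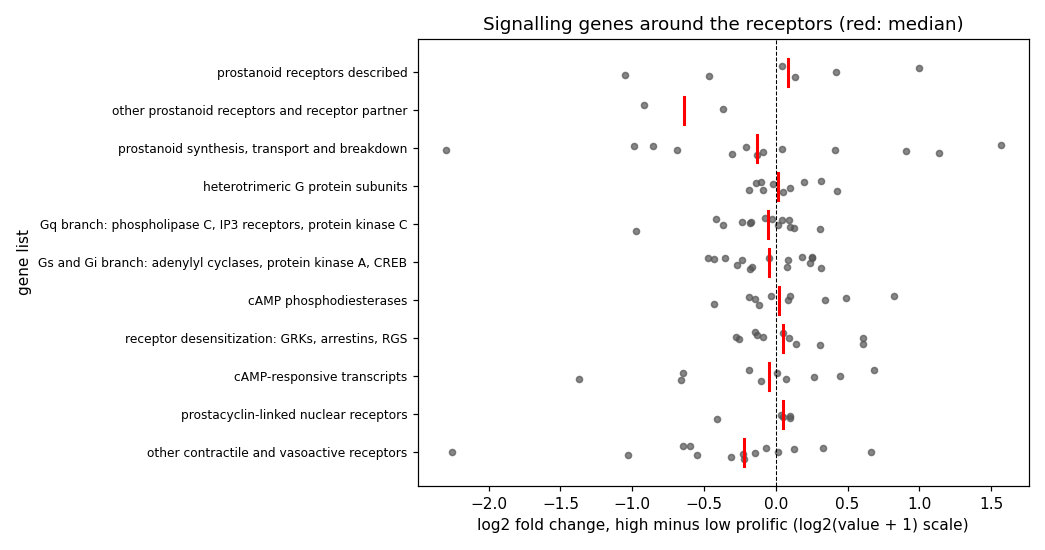
Log2 fold change (high minus low prolific, log2(value + 1) scale) of the 6 receptors and of each measured gene in 10 lists around them, 1 point per gene, with the median of each list in red. The medians of the signalling lists lie between -0.05 and 0.05 and no gene shown passed the test.

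Markers of further cell types were looked up, while which cells carry the receptors was not measured in this bulk tissue. The smooth muscle markers (7 of 8 measured) lay lower in 6 genes, with a median log2 fold change of -0.77. ACTA2 (2732 to 4881 in high, 6676 to 10018 in low prolific sows), ACTG2, DES and CNN1 did not overlap. Of all genes, 6.32% lay lower in high prolific sows without overlap. The sum over the list did overlap, from 21666 to 28506 against 21901 to 31160, since MYH11, the most abundant member, had its highest value in high 2 (21899). As groups, the high prolific sows had higher PTGFR, lower TBXA2R and lower ACTA2 values, each without overlap. TBXA2R and ACTA2 ordered the high prolific sows alike, but not the low prolific sows. In high 2 both ACTA2 (2732) and TBXA2R (46.7) were at the lowest of their group. In low 2, however, TBXA2R was at its group's lowest (55.1) and ACTA2 at its highest (10018). The endothelial markers (6 of 7 measured) were all below 0 (median -0.40) and summed to between 9732 and 14543 in high and between 12181 and 22124 in low prolific sows, with low 3 highest, as in TBXA2R and PTGER2. PECAM1 alone did not overlap, at 2356 to 3201 against 4211 to 6353. Of the platelet markers 2 of 7 were measured, with summed levels of 137 to 168 and 139 to 217. Leukocyte markers (8 of 8) had a median of -0.0025 and sums of 3652 to 4647 and 3490 to 4341. The neutrophil markers (4 of 7 measured) summed to 276 to 9139 in high and 11666 to 23295 in low prolific sows, but each of the 4 genes overlapped between the groups. MMP8 made up most of the sum in low 1 (11243 of 11666) and in high 3 (8703 of 9139). S100A8 was at 713, 2.22 and 113 in high 1 to high 3 and at 85.2, 5414 and 10857 in low 1 to low 3. S100A12 was likewise high in low 2 and low 3 (7533 and 5283), with 169 in low 1 below 582 in high 1. CSF3R leaned the other way, with a log2 fold change of 0.66 and its lowest value, 44.3, in low 2. No measured marker in these lists was at 0, and the part of any of these cell types in the receptor values was not tested.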

How the data were processed

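Endometrial RNA of 6 sows (3 high and 3 low prolific) had been sequenced with 1 library per sow. Nothing in the labels says that replicate numbers pair sows. Values in the deposited table are normalized read counts, a signal at or above 0 that is not whole, with 1 column per sow. Subread 1.6, featureCounts and edgeR are named as the authors' tools, per the submitters' processing notes, while roles, settings, the kind of normalization, the genome build and the annotation are not given in the sources used here. No coordinates are printed. Low values (under 20) fell within 0.1 of multiples of a single step in 94.3% of cases in high 1 and 100% in high 3. In high 2 and in low 1 to low 3 they did so in 40.8% to 64.6%. Whole reads could therefore not be recovered in every library, and count models were not used. Symbols came from a table of Ensembl identifiers that matched 11977 of the 14262 genes. Requiring a value of 10 in 3 or more libraries removed 0 genes.

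Groups were compared with limma 3.58.1 (R 4.3.3) after adding a pseudocount of 1 and taking log2, with trended and robust variance moderation and two-sided tests, adjusted over all 14262 genes. The fit was tested on simulated data. Members and gene lists were chosen with earlier results of these data known. Named were all 6 receptors, the 3 genes of each pathway list with the smallest p, PTGER1, PTGDR, PTGDR2, PTGFRN, PTGS2, PTGES and AKR1B1, and the 3 closest genes to each receptor with a symbol and a mean of at least 50. Markers, GNAS, OXTR, PLCB1, PLCB2 and PLCB4 were named after their values were seen. Alternatives were another pseudocount, filter, scaling, variance model or library weighting, parity, a replicate block, and sows left out.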

Additional observations from a re-analysis of the deposited data

How the results depend on the processing

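The counts of called genes and the log2 fold changes of the 6 receptors and of 33 further named genes were recomputed under up to 18 alternatives; list medians, marker sums, ratios and the closest genes were not. The count of called genes was 0 as reported and ranged from 0 to 4 with 1 sow left out, with 4 without low 1 and 1 without low 2, and it was 0 under the other 16. No receptor passed under any of the alternatives run. PTGFR kept a positive log2 fold change in all 18 (0.66 to 1.16) and PTGER2 a negative one (-1.46 to -0.33). TBXA2R stayed negative in its 17. For PTGFR and TBXA2R, whose groups did not overlap, leaving sows out could not turn the sign. Another filter, another variance model or the replicate block leaves the log2 fold change itself the same. The kept signs of these 2 genes therefore carry little weight, and the ranges show only how far the size moved. Keeping genes with a mean of 200 or more dropped PTGER3, PTGIR and TBXA2R. The direction of PTGER3 turned when high 1 (-0.05), low 3 (-0.14) or low 2 and low 3 together (-0.55) were left out, and ranged from -0.14 to 0.99 with 1 sow left out. PTGER4 turned without high 3 (-0.11), with a range of -0.11 to 0.29, and PTGIR without high 1 (-0.024) and without low 1 (-0.018), with a range of -0.024 to 0.093. Among the further genes, 7 values turned and none passed. They were PTGFRN (0.019), PTGES (-0.024), PDE4B (0.079) and RXRB (-0.050) without low 2 and low 3 together, PTGFRN without low 2 (0.098), PPARG without high 3 (0.044) and RXRA without low 1 (-0.025). With 1 sow left out PTGFRN ranged from -0.64 to 0.098, PPARG from -0.80 to 0.044 and RXRA from -0.025 to 0.26. Values that kept their sign also shifted without low 2 and low 3 together. HPGD went from 1.57 to 0.37, AKR1B1 from -2.30 to -0.25, PDE3A from 0.49 to 0.23 and PLCB3 from -0.23 to -0.06. PDE4C went the other way, from 0.82 to 1.61. The cause of these turns and shifts was not tested.

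Whether label numbers pair the sows is not given. Deviations from the group means of same-numbered sows correlated, across genes, at -0.38, -0.16 and -0.36. Those of differently numbered sows correlated at -0.04 to 0.38. The deviations of the 3 sows of a group sum to 0 for each gene, so these correlations cannot decide on pairing. With a replicate block limma called 0 genes and 615 had an unadjusted p under 0.05, against 1129 without it. Under the block the log2 fold changes were the same and the adjusted p of PTGFR was 0.931. Scaling columns to the same sum moved the median of all genes from -0.0024 to 0.04. Depth is unknown, so precision at low values, such as those of PTGER3, PTGIR and TBXA2R, cannot be given from counting.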
